A study of Mus musculus with 12 samples.

Results

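The Kruppel-like factor genes Klf2, Klf3, Klf4, Klf5, Klf6, Klf7, Klf10, Klf13 and Klf15 were followed through forebrain ischemia in the mouse hippocampal CA1 subfield. They were taken by symbol: every probe set whose only gene symbol in the platform annotation was one of these 9 names, which gave 20 of the 22690 probe sets and 9 of the 12394 genes tested. All 9 genes had a mean log2 intensity of at least 5, the level used elsewhere as a filter on dim genes. The 4 groups were SUMO-KD mice after 10 minutes of transient forebrain ischemia and 3 hours of reperfusion, SUMO-KD mice after sham surgery, wild-type mice after the same ischemia and reperfusion, and wild-type mice after sham surgery. SUMO-KD mice are transgenic animals with a knockdown of SUMO, the small ubiquitin-like modifier that is joined to other proteins. Each group held 3 arrays described as biological replicates, and each array carried total RNA from the CA1 of 2 mouse brains, so each value is a mean of pooled animals. The transgene's promoter, the strain, the sex and the age are not given in the sources used here.

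Kruppel-like factors are transcription factors that bind GC-rich and CACCC sequences through zinc fingers at their C-terminal end. Outside these fingers they differ, so that some mainly activate genes, some mainly repress them through partner proteins, and several compete with one another or with the related SP factors for the same sites. In the nervous system the family is known for setting how well neurons regrow axons: Klf4 restrains regrowth in retinal ganglion cells, while Klf6 and Klf7 favour it. Several members, Klf4, Klf6 and Klf10 among them, belong to the early genes that cells switch on after growth factors, stress or injury.

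Promoter sequence was printed for 3 genes that stand for what the arrays showed: Klf4 and Klf6, the members with the largest mean rise over both genotypes, and Klf2, an endothelial member that did not pass the test. The RefSeq promoter table (GRCm38.p6) held 7 of the 9 genes, each as 300 bases from 250 before to 50 after an annotated transcript start. Klf5 and Klf10 were not matched. The 250 bases before the start are given 5′ to 3′ on the gene's own strand, at chr8:72318812-72319061 (plus strand) for Klf2, chr4:55532476-55532725 (minus strand) for Klf4 and chr13:5861239-5861488 (plus strand) for Klf6. Capitals mark motif matches on either strand: GC boxes, CACCC boxes and a MEF2 site.

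Klf2: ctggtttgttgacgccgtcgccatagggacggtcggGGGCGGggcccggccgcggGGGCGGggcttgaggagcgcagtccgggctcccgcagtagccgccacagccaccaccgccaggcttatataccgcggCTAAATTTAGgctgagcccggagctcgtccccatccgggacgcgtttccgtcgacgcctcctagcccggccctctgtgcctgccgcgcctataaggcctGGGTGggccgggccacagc

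Klf4: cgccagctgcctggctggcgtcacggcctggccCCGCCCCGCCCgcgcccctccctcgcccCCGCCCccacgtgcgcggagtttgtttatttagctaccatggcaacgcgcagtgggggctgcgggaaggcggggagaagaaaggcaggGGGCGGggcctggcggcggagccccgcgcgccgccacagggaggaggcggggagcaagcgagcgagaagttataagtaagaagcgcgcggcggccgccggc

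Klf6: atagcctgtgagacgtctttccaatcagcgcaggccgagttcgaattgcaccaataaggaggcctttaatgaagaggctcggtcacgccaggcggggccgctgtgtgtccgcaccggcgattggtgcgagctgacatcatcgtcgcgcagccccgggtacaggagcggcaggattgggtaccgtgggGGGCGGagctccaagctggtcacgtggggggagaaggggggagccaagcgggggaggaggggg

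The 8 motifs searched on both strands were the CACCC box, the GC box with the letters GGGCGG, the cyclic AMP response element (TGACGTCA), the AP-1 site (TGA and TCA with any base between), a heat shock element (GAANNTTC), a glucocorticoid receptor motif (AGAACA), the CArG box bound by serum response factor, and the MEF2 site. All 7 windows held at least 1 GC box, a motif present in 35.7% of 32851 windows of the same length. The number of GC boxes was 4 in Klf4, with 1 adjoining pair sharing a base, against 1 each in Klf6, Klf7 and Klf15, 2 in Klf2, 3 in Klf13 and 6 in Klf3. CACCC boxes, found in 57.5% of all windows, were present in Klf2, Klf3, Klf7, Klf13 and Klf15. In Klf3 and Klf13 a CACCC box overlapped a GC box. Neither Klf4 nor Klf6 held these letters in its window. Klf2 held the only MEF2 match, CTAAATTTAG, which ended 109 bases before the start, and 3.19% of all windows had one. MEF2 factors are known activators of Klf2 in endothelium. The AP-1, cyclic AMP, heat shock, glucocorticoid and CArG letters occurred in 7.81%, 1.79%, 7.86%, 19% and 1.63% of all windows and in none of the 7. GC content of the 7 windows ran from 58.3% to 76.7%, where the median of all windows was 52.7%. A match or its absence describes these windows only.

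**Figure D1:**
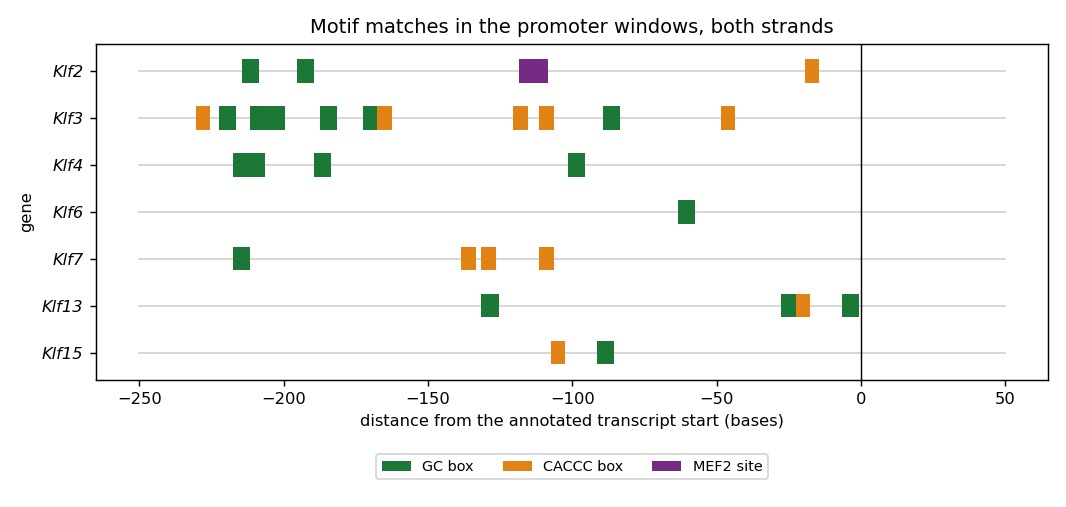
Positions of motif matches in the promoter windows of the 7 matched genes, by distance in bases from the annotated start (x axis, 0 at the start). Green marks GC boxes, orange CACCC boxes and purple the MEF2 site; every window holds a GC box, and the MEF2 site appears in Klf2 alone among the 7.

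The arrays were of similar brightness, with median intensities of 141 to 162 and 22.4% to 28.6% of probe sets below an intensity of 32. Sumo3 averaged 1908 ± 28.3 in SUMO-KD ischemia and 1560 ± 194 in SUMO-KD sham arrays, against 3400 ± 140 in wild-type ischemia and 2343 ± 113 in wild-type sham arrays (mean ± SD, n = 3). A control probe set for the 3′ end of 18S ribosomal RNA read 2829 to 4127 in 5 of the 6 ischemia arrays and 5087 to 7569 in the 6 sham arrays. SUMO-KD ischemia replicate 2 stood apart from its surgery group at 6316, so the members' calls are given with and without it. For the 5′ and middle 18S probe sets the 5 ischemia arrays read 1275 to 1660 and 968 to 1395, the sham arrays 4194 to 6528 and 2194 to 4162, and SUMO-KD ischemia replicate 2 read 4127 and 2591. The excitatory neuron markers summed to 15263 to 17846 in SUMO-KD ischemia and 15469 to 18134 in SUMO-KD sham arrays, against 14047 to 17685 in wild-type ischemia and 17952 to 23152 in wild-type sham arrays, with 5 of 8 markers measured and none dim. Wfs1, a CA1 marker, was lower in SUMO-KD sham than in wild-type sham (1209 ± 143 against 2252 ± 408, SD, n = 3; log2 difference −0.87, adjusted p = 0.0145), and it fell with ischemia in wild-type by 0.60 (adjusted p = 0.0206). Tdo2, a dentate gyrus marker, differed in sham arrays by 0.88 with no overlap and did not pass (adjusted p = 0.0625). The part of these differences in the results below was not tested.

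Ischemia raised Klf4, Klf5, Klf6, Klf7 and Klf10 in both genotypes, and no member fell. Klf6 and Klf4 led in SUMO-KD CA1, with log2 differences of 2.34 and 2.35, while Klf6 and Klf10 led in wild-type CA1, with 1.99 and 1.68. Klf2, Klf3, Klf13 and Klf15 did not pass in either genotype. In limma's test 5 of 9 members were called higher with ischemia in SUMO-KD, where 6.09% of all genes were called higher and 4.62% lower. In wild-type the same 5 of 9 were called higher, against 9.6% of all genes called higher and 8.88% lower. For the mean response over both genotypes it was again 5 higher and 0 lower, against 12.8% and 14% of all genes. The 9 members were chosen with earlier results of these data known, so these counts describe them and do not test the family. No further member had an unadjusted p under 0.05 in these 3 comparisons. The median log2 difference of the 9 members was 0.67 in SUMO-KD and 0.44 in wild-type, where the median of all genes was −0.02 and −0.04. Without SUMO-KD ischemia replicate 2, the same 5 genes stayed called in SUMO-KD.

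**Figure D2:**
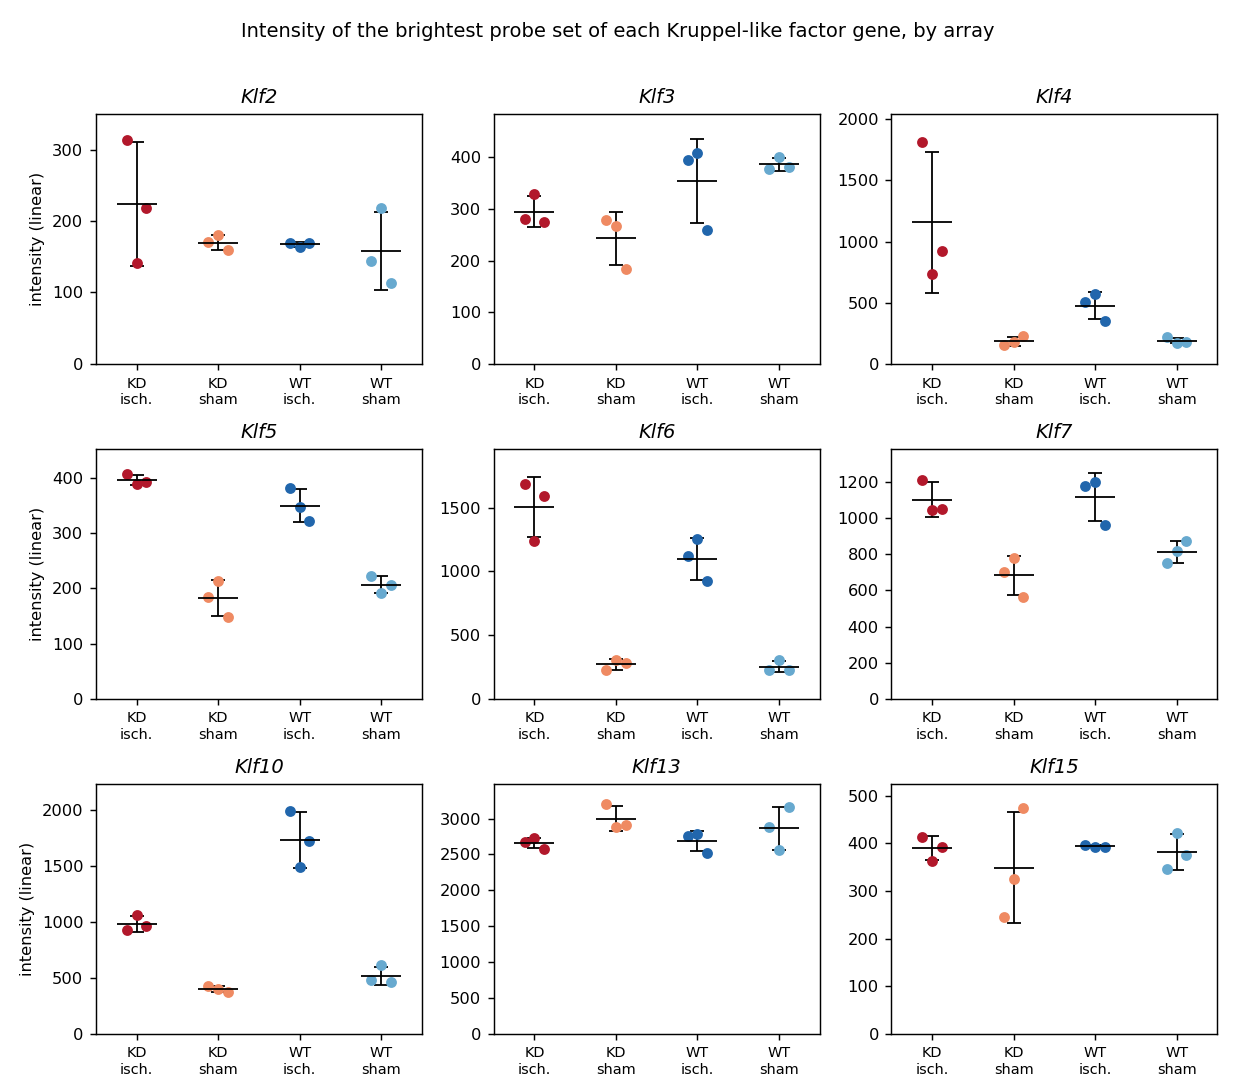
Intensity (y axis, linear, from 0) of the brightest probe set of each of the 9 genes on each of the 12 arrays. Points are arrays, each a pool of 2 brains, grouped from left to right as SUMO-KD ischemia, SUMO-KD sham, wild-type ischemia and wild-type sham; bars give the mean and SD of 3 arrays. Points of ischemia and sham arrays do not overlap within either genotype for Klf4, Klf5, Klf6, Klf7 and Klf10. Intensities of different genes come from different probes and are not comparable.

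Klf6, a widely expressed factor that is induced by injury and activates Tgfb1 and endoglin, rose in both genotypes. Its intensity was 1687, 1237 and 1586 in SUMO-KD ischemia arrays, against 225, 307 and 282 in SUMO-KD sham arrays. In wild-type it was 1118.5, 1253 and 926 after ischemia, against 228, 304 and 227 after sham surgery. The lowest ischemia array of each genotype stood above 3 times the highest sham array. The log2 difference was 2.34 in SUMO-KD (SE 0.16, adjusted p = 7.53e-06) and 1.99 in wild-type (SE 0.16, adjusted p = 1.48e-05), a 5.05-fold and a 3.97-fold change on the scale of intensity plus 32. The other 2 Klf6 probe sets rose as well, by 1.97 and 2.21 in SUMO-KD and by 1.69 and 1.87 in wild-type.

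Klf4, a reprogramming factor that slows cell division and restrains axon growth, varied most between pools. Its intensity was 1810.2, 736 and 923 in SUMO-KD ischemia arrays, against 154, 179 and 225 in SUMO-KD sham arrays. In wild-type it was 503.5, 568.5 and 352 after ischemia, against 219, 175 and 181 after sham surgery. Sham arrays of both genotypes lay in one narrow range, and SUMO-KD ischemia replicate 1 was far above the rest. Ischemia minus sham was, on the log2 scale, 2.35 in SUMO-KD (SE 0.28, 95% interval 1.74 to 2.96, adjusted p = 0.000282) and 1.16 in wild-type (SE 0.28, interval 0.55 to 1.77, adjusted p = 0.0139). The SUMO-KD difference was 2.62 without replicate 2 of the ischemia arrays. Over the 12 single-array omissions it ran from 1.985 to 2.616 and stayed called in each.

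Klf7, which promotes axon growth and drives genes of neuronal differentiation, rose less. Its intensity was 1212.5, 1043 and 1052 in SUMO-KD ischemia arrays, against 703, 781 and 566 in SUMO-KD sham arrays. In wild-type it was 1179.9, 1202 and 962 after ischemia, against 752, 815 and 872 after sham surgery. The groups did not overlap in either genotype, though wild-type ischemia replicate 3 came near the highest sham array. On the log2 scale the difference was 0.67 in SUMO-KD (SE 0.13, adjusted p = 0.00699) and 0.44 in wild-type (SE 0.13, adjusted p = 0.0372). The wild-type call of Klf7 was lost in 6 of 12 single-array omissions: without wild-type sham replicate 1 (0.38, adjusted p = 0.123), replicate 2 (0.44, 0.0754) or replicate 3 (0.49, 0.056), without wild-type ischemia replicate 1 (0.39, 0.112) or replicate 2 (0.38, 0.108), and without SUMO-KD ischemia replicate 3 (0.44, 0.0514).

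Klf5, a growth-associated factor of epithelium and vascular smooth muscle, had intensities of 407, 389 and 392 in SUMO-KD ischemia arrays, against 185, 213 and 148 in SUMO-KD sham arrays. In wild-type it had 381, 347 and 322 after ischemia, against 223, 192.5 and 205 after sham surgery. The ischemia arrays formed a tight group in SUMO-KD. The log2 difference was 1.01 in SUMO-KD (SE 0.11, adjusted p = 0.000202) and 0.67 in wild-type (SE 0.11, adjusted p = 0.00192). This probe set is one that the platform marks as shared between transcripts of a gene. Without such probe sets Klf5 is left with a dim one at 19.2 to 62.6, and its differences of 0.30 in SUMO-KD (adjusted p = 0.137) and 0.32 in wild-type (adjusted p = 0.0824) did not pass.

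Klf10, known as the TGF-beta-inducible early gene, is a repressor whose targets include the SMAD inhibitor Smad7. Its intensity was 925, 1065 and 964 in SUMO-KD ischemia arrays, against 427, 400 and 373 in SUMO-KD sham arrays. In wild-type it was 1991, 1492 and 1722 after ischemia, against 481.5, 611 and 462 after sham surgery. All 4 groups of Klf10 were separate from one another, with wild-type ischemia on top. On the log2 scale the rise was 1.23 in SUMO-KD (SE 0.13, adjusted p = 0.00012) and 1.68 in wild-type (SE 0.13, adjusted p = 8.14e-06).

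Klf2, an endothelial factor induced by blood flow, did not pass. Its intensity was 314, 141 and 218 in SUMO-KD ischemia arrays, against 170.1, 180.2 and 159 in SUMO-KD sham arrays. In wild-type it was 169, 164 and 169 after ischemia, against 143, 218 and 113 after sham surgery. SUMO-KD ischemia arrays spread both above and below the sham arrays. The log2 difference was 0.29 in SUMO-KD (95% interval −0.21 to 0.79, adjusted p = 0.509) and 0.11 in wild-type (−0.40 to 0.61, adjusted p = 0.815), and without SUMO-KD ischemia replicate 2 it was 0.54 in SUMO-KD (adjusted p = 0.17). Endothelial markers summed to 2283 to 2288 in SUMO-KD ischemia and 2532 to 3163 in SUMO-KD sham arrays, against 2201 to 2741 in wild-type ischemia and 2879 to 3408 in wild-type sham arrays. Of 11 measured markers, with Tie1 below an intensity of 32, 1 rose and 3 fell in SUMO-KD, and 2 rose and 3 fell in wild-type. The shares of all genes were 6.09% and 4.62% in SUMO-KD, and 9.6% and 8.88% in wild-type. In such bulk tissue, fewer cells of a type and less RNA per cell cannot be told apart.

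Klf3, a repressor that recruits CtBP corepressors, had 279.6, 329 and 274 in SUMO-KD ischemia arrays, against 278, 267 and 184 in SUMO-KD sham arrays. In wild-type it had 394, 407 and 259.6 after ischemia, against 376, 401 and 381 after sham surgery. On this, the brightest Klf3 probe set, ischemia and sham arrays overlapped in both genotypes. The log2 difference was 0.26 in SUMO-KD (interval −0.11 to 0.63, adjusted p = 0.406) and −0.14 in wild-type (−0.51 to 0.23, adjusted p = 0.636).

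Klf13, a relative of Klf9 that is abundant in brain and is known as an activator of Ccl5 in T cells, had 2677, 2723 and 2579.6 in SUMO-KD ischemia arrays, against 3196, 2878 and 2913 in SUMO-KD sham arrays. In wild-type it had 2750.3, 2791 and 2525 after ischemia, against 2878, 2561 and 3155 after sham surgery. On this, the brightest Klf13 probe set, the 3 SUMO-KD ischemia arrays lay below the 3 SUMO-KD sham arrays, and the wild-type groups overlapped. Neither difference passed: it was −0.17 in SUMO-KD (interval −0.37 to 0.04, adjusted p = 0.308) and −0.09 in wild-type (−0.29 to 0.12, adjusted p = 0.585).

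Klf15, a glucocorticoid-responsive regulator of amino acid and glucose metabolism, had 414, 363 and 391 in SUMO-KD ischemia arrays, against 245, 326 and 474 in SUMO-KD sham arrays. In wild-type it had 397, 393 and 393 after ischemia, against 346, 421 and 376 after sham surgery. The widest spread was among SUMO-KD sham arrays. In log2 units the difference was 0.19 in SUMO-KD (interval −0.19 to 0.57, adjusted p = 0.57) and 0.05 in wild-type (−0.33 to 0.43, adjusted p = 0.887).

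**Figure D3:**
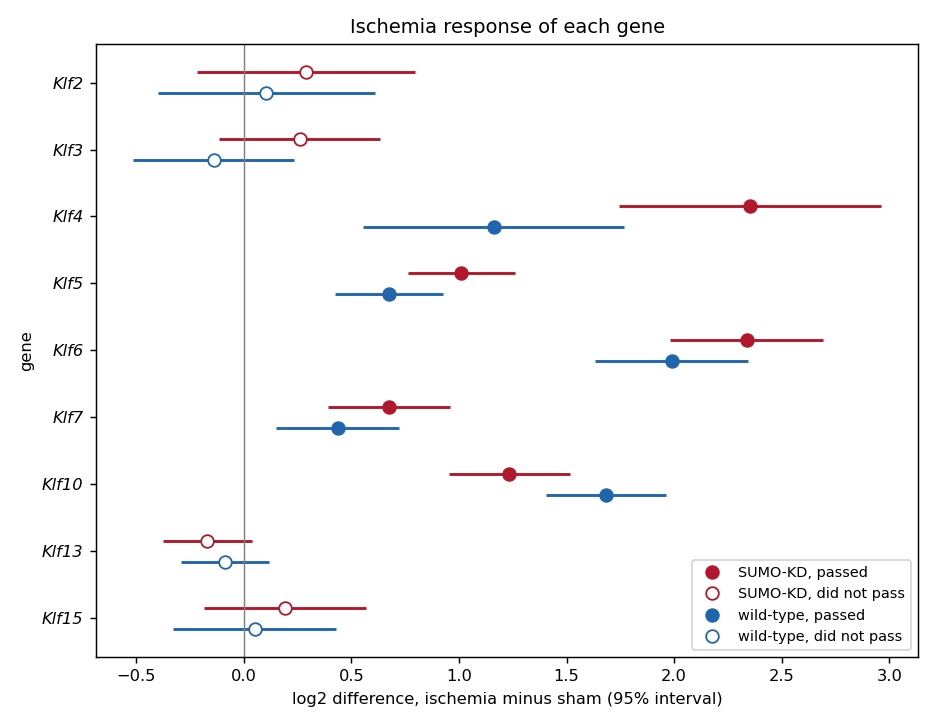
Ischemia minus sham log2 difference (x axis) of each gene in SUMO-KD (red, upper) and wild-type (blue, lower), with 95% intervals; filled points passed limma's test at an adjusted p under 0.05. Klf4, Klf5, Klf6, Klf7 and Klf10 are filled in both genotypes, from 0.44 for Klf7 in wild-type to 2.35 for Klf4 in SUMO-KD, and the intervals of the other 4 genes span 0.

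Fitted separately, 11 of the 20 probe sets were called higher with ischemia in SUMO-KD and 9 in wild-type, with 0 lower in each. For the mean response it was 12 of 20. Over all 22626 probe sets, 5.2% were called higher in SUMO-KD, 8.84% in wild-type and 12% for the mean response. The second Klf4 probe set gave 2.35 in SUMO-KD (adjusted p = 0.0013) and 0.81 in wild-type (adjusted p = 0.133), so the wild-type rise of Klf4 rests on the brighter one. Its arrays read 951, 328 and 514 in SUMO-KD ischemia and 65.4, 87 and 94.1 in SUMO-KD sham, against 182, 310.1 and 123 in wild-type ischemia and 87.8, 106 and 94.9 in wild-type sham. Of the 4 Klf7 probe sets, 4 were called in SUMO-KD, at 0.51 to 0.84, and 3 in wild-type, at 0.44 to 0.61. The 3 probe sets of Klf3 and the 3 of Klf13 did not pass in either genotype, and the third Klf13 probe set read 5.5 to 19.5 on all arrays, which is background. The third Klf3 probe set was higher on every SUMO-KD ischemia array than on the SUMO-KD sham arrays (0.36, adjusted p = 0.152). The second Klf13 probe set gave 0.05 in SUMO-KD (adjusted p = 0.834) and 0.12 in wild-type (adjusted p = 0.435), with overlap in both.

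**Figure D4:**
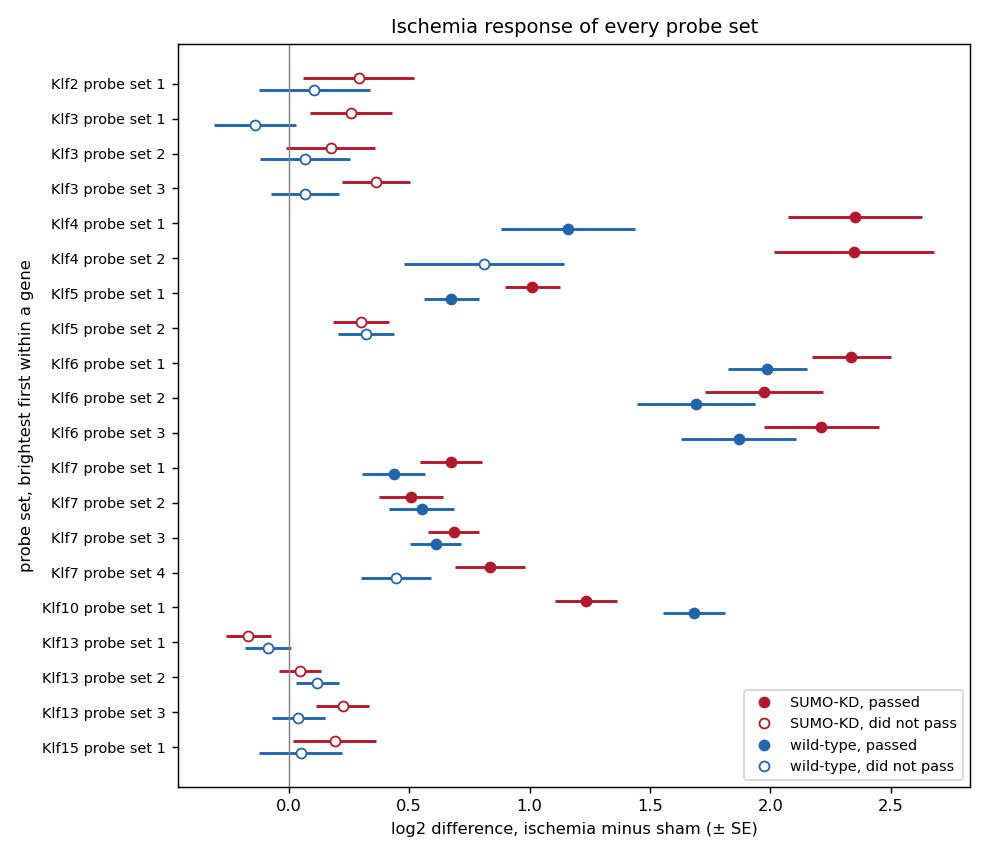
Ischemia minus sham log2 difference (x axis) with its SE for each of the 20 probe sets, brightest first within a gene, in SUMO-KD (red, upper) and wild-type (blue, lower); filled points passed. All probe sets of Klf6 are filled in both genotypes, while the second Klf4 probe set is filled in SUMO-KD only and the second Klf5 probe set is open in both.

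Between genotypes, Klf10 was lower in SUMO-KD than in wild-type after ischemia, and it was the only member called in limma's test. The 3 SUMO-KD ischemia arrays, at 925 to 1065, lay below the 3 wild-type ischemia arrays, at 1492 to 1991. The log2 difference was −0.79 (SE 0.13, interval −1.07 to −0.51, adjusted p = 0.0118), which is 0.578 of the wild-type level on the scale of intensity plus 32. In this comparison 1 of 9 members was called, where 1.56% of all genes were, and 3 members had an unadjusted p under 0.05. The Klf10 call was lost narrowly without wild-type ischemia replicate 1 (−0.69, adjusted p = 0.0501), without SUMO-KD ischemia replicate 1 (−0.75, 0.0516) and without SUMO-KD ischemia replicate 3 (−0.78, 0.0546), and with the ischemia groups alone in the fit (−0.79, 0.0747). It held without SUMO-KD ischemia replicate 2 (−0.85, adjusted p = 0.0252).

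Klf4 lay on the other side. Its 3 SUMO-KD ischemia arrays, at 736 to 1810.2, were above the 3 wild-type ischemia arrays, at 352 to 568.5, with a log2 difference of 1.15 (SE 0.28, interval 0.54 to 1.76) that did not pass (adjusted p = 0.0732). The second Klf4 probe set gave 1.36 (adjusted p = 0.0935), also with no overlap. Over the 12 single-array omissions the difference on the brighter probe set ran from 0.781 to 1.413 (adjusted p 0.0376 to 0.183), and 1 omission passed. That was the omission of SUMO-KD ischemia replicate 2, whose Klf4 was the lowest of its group (1.41, adjusted p = 0.0376). Klf6 differed by 0.44 (interval 0.08 to 0.80, adjusted p = 0.222; 0.57 and 0.139 without that array) and Klf5 by 0.17 (−0.08 to 0.42, adjusted p = 0.525). The second, dim Klf5 probe set went the other way, at −0.24 (adjusted p = 0.408). Neither Klf5 probe set overlapped between genotypes, SUMO-KD being higher on the first and lower on the second. For Klf2, Klf3, Klf7, Klf13 and Klf15 the differences were 0.31, −0.22, −0.01, −0.01 and −0.02, and their groups overlapped on the brightest probe set. The second probe sets of Klf7 and Klf13 were lower on every SUMO-KD ischemia array, by −0.23 and −0.17, and did not pass (adjusted p = 0.491 and 0.439). The other probe sets of Klf3, Klf7 and Klf13 overlapped.

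After sham surgery 0 of 9 members were called in limma's test, where 2.1% of all genes were, and 2 members had an unadjusted p under 0.05. These were Klf3 and Klf10, named after their values were seen. On its brightest probe set Klf3 read 278, 267 and 184 in SUMO-KD sham arrays, against 376, 401 and 381 in wild-type sham arrays, with no overlap. Its log2 difference was −0.62 (interval −0.99 to −0.25, adjusted p = 0.102), and it passed without wild-type ischemia replicate 3, an array outside the comparison that adds to the shared spread (adjusted p = 0.041). The second Klf3 probe set differed by −0.22, with overlap (adjusted p = 0.708), and the third by −0.40, with no overlap (adjusted p = 0.26). Klf10 differed by −0.34 (interval −0.62 to −0.06, adjusted p = 0.247), with 373 to 427 in SUMO-KD sham arrays, below the 462 to 611 of wild-type sham arrays. The remaining differences ran from −0.25 for Klf7 to 0.12 for Klf2.

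Whether the genotypes responded differently to ischemia was tested directly. In limma's test 0 of 9 members passed, where 0.0161% of all genes (2 genes) did, and 2 members had an unadjusted p under 0.05. Klf4 responded more in SUMO-KD, by 1.19 (SE 0.39, interval 0.33 to 2.05, unadjusted p = 0.0109, adjusted p = 0.716), and by 1.46 without SUMO-KD ischemia replicate 2 (adjusted p = 0.48). Over the 12 single-array omissions this Klf4 difference ran from 0.824 to 1.455 (adjusted p 0.48 to 0.911). Klf10 responded less in SUMO-KD, by −0.45 (SE 0.18, interval −0.85 to −0.05, unadjusted p = 0.0296, adjusted p = 0.796). Neither is therefore shown to differ between the genotypes in its response. The other 7 differences lay between −0.08 for Klf13 and 0.40 for Klf3, and their intervals spanned 0. These genotype comparisons share arrays with the ischemia comparisons above.

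**Figure D5:**
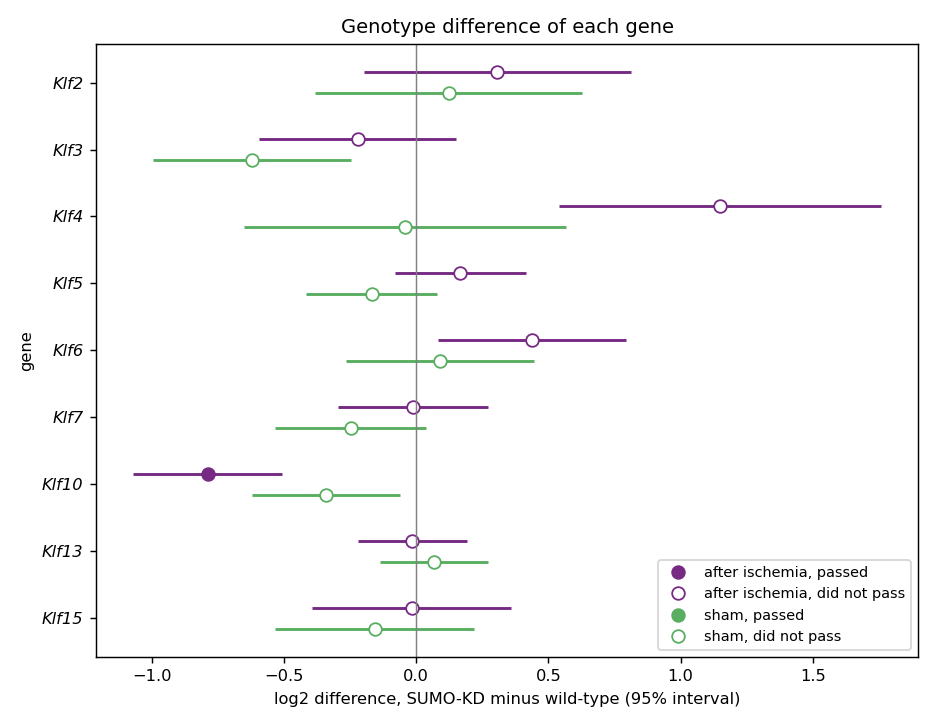
SUMO-KD minus wild-type log2 difference (x axis) of each gene after ischemia (purple, upper) and after sham surgery (green, lower), with 95% intervals; the filled point passed. Klf10 after ischemia is the filled one at −0.79, and Klf4 after ischemia lies farthest to the right at 1.15 without passing.

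Of 16 other listed members of the KLF and SP family, 11 were measured. Klf16, a repressor first described as a dopamine receptor regulating factor, rose in SUMO-KD by 0.68 (adjusted p = 0.00776; 764 ± 11.7 after ischemia, 471 ± 93.5 after sham, SD, n = 3) and in wild-type by 0.80 (adjusted p = 0.00181; 940.7 ± 80.2 after ischemia, 526 ± 53.6 after sham). Without SUMO-KD ischemia replicate 2 its SUMO-KD rise was 0.69 (adjusted p = 0.0267). Klf9, a hormone-responsive repressor, rose by 0.36 in the mean response (adjusted p = 0.00435) and by 0.40 in wild-type (adjusted p = 0.0255), a call lost without wild-type sham replicate 1 (adjusted p = 0.095) or 3 (0.0831) and without wild-type ischemia replicate 1 (0.0548) or 3 (0.0907). Sp1, which binds GC boxes widely, rose by 0.39 in the mean response (adjusted p = 0.0329), a call lost in 8 of 12 omissions (adjusted p 0.0519 to 0.0774). In all, 1 of 11 rose in SUMO-KD, 2 in wild-type and 3 in the mean response, where 6.09%, 9.6% and 12.8% of all genes rose, and no call was a fall. The median log2 difference of the list was 0.06 in SUMO-KD and 0.14 in wild-type.

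Among 23 measured upstream regulators and cofactors, Smad7 and Srf rose in both genotypes. Smad7, the inhibitory SMAD that Klf10 represses, averaged 713 ± 25.4 in SUMO-KD ischemia and 403 ± 99.9 in SUMO-KD sham arrays, against 1452 ± 145 in wild-type ischemia and 443 ± 50.8 in wild-type sham arrays (SD, n = 3). It rose by 0.80 in SUMO-KD (adjusted p = 0.00497) and by 1.65 in wild-type (adjusted p = 2.76e-05), and after ischemia it was lower in SUMO-KD, by −0.99 (adjusted p = 0.00788). Without SUMO-KD ischemia replicate 2 that difference was −0.98 (adjusted p = 0.0273), and the SUMO-KD rise was 0.81 (adjusted p = 0.0188). Srf, the factor that binds CArG boxes, averaged 1062 ± 73.2 in SUMO-KD ischemia and 495 ± 47.3 in SUMO-KD sham arrays, against 1445 ± 51 in wild-type ischemia and 731 ± 29.6 in wild-type sham arrays. It rose by 1.06 in SUMO-KD and 0.95 in wild-type (adjusted p = 2.76e-05 and 4.41e-05). It was lower in SUMO-KD in both surgeries, by −0.54 after sham (adjusted p = 0.00999) and by −0.43 after ischemia (adjusted p = 0.0373). The sham call was lost without wild-type sham replicate 1 (0.0585) or SUMO-KD sham replicate 3 (0.0575), and the ischemia call in 9 of 12 omissions (adjusted p 0.0562 to 0.14).

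The TGF-beta receptor Tgfbr1 rose by 0.38 in the mean response (adjusted p = 0.00184), and the corepressor Ctbp2 by 0.30 (adjusted p = 0.0208; 0.051 without SUMO-KD sham replicate 3). Mef2a fell by 0.23 (adjusted p = 0.0225), a call lost without wild-type sham replicate 3, SUMO-KD sham replicate 1 or 2, or SUMO-KD ischemia replicate 2 (adjusted p 0.0522 to 0.0566). The corepressor Ctbp1, a partner of Klf3, fell by 0.18 (adjusted p = 0.0401), a call lost in 9 of 12 omissions (adjusted p 0.0571 to 0.0914). In all, 2 of 23 rose in SUMO-KD and 0 fell, 4 rose and 1 fell in wild-type, and 4 rose and 2 fell in the mean response, against the shares of all genes given above for each comparison (6.09% and 4.62%, 9.6% and 8.88%, 12.8% and 14%). The wild-type count of 5 became 3 without wild-type sham replicate 2 or 3 or wild-type ischemia replicate 2 or 3. The list's median of −0.03 in SUMO-KD and −0.02 in wild-type was close to that of all genes.

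Of 21 measured genes that textbooks give as KLF targets, 7 rose and 0 fell in SUMO-KD, 6 rose and 3 fell in wild-type, and 8 rose and 2 fell in the mean response. Of all genes, 6.09% rose and 4.62% fell in SUMO-KD, 9.6% rose and 8.88% fell in wild-type, and 12.8% rose and 14% fell in the mean response. The list was chosen with earlier results of these data known, so these counts do not test KLF targets as a set. The stress factor Atf3 rose by 4.32 in SUMO-KD and 4.88 in wild-type. Cdkn1a, the cell cycle inhibitor p21 that Klf4 and Klf6 can activate, rose by 1.74 in SUMO-KD (adjusted p = 0.0101) and 2.25 in wild-type (adjusted p = 0.00139). It averaged 1984 ± 501 in SUMO-KD ischemia and 613 ± 341 in SUMO-KD sham arrays, against 2324 ± 211 in wild-type ischemia and 499.6 ± 251 in wild-type sham arrays (SD, n = 3). Without SUMO-KD ischemia replicate 2, the SUMO-KD rises were 4.44 for Atf3 (adjusted p = 1.87e-06) and 1.55 for Cdkn1a (adjusted p = 0.0475). Smad7, which is also in the list of regulators, counts here as well.

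The remaining named targets rose in both genotypes. Pdk4, a kinase that slows glucose oxidation, rose by 1.09 in SUMO-KD (adjusted p = 0.0133; 0.0506 without SUMO-KD ischemia replicate 2) and 1.49 in wild-type (adjusted p = 0.00134). Plat, tissue plasminogen activator, rose by 0.82 in SUMO-KD (adjusted p = 0.0135; 0.0549 without SUMO-KD sham replicate 1) and 1.23 in wild-type (adjusted p = 0.000806). Pdgfa, a growth factor gene that Klf5 activates in smooth muscle, rose by 0.66 in SUMO-KD (adjusted p = 0.0155) and 0.96 in wild-type (adjusted p = 0.00118). The SUMO-KD call of Pdgfa was lost without SUMO-KD sham replicate 1 or 2 or SUMO-KD ischemia replicate 2 or 3 (adjusted p 0.0538 to 0.0708).

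The 3 targets that fell in wild-type were Eng, L1cam and Bcat2, named after their values were seen. Eng, the TGF-beta coreceptor endoglin, fell by 0.34 (adjusted p = 0.0329), a call lost in 5 of 12 omissions (adjusted p 0.0566 to 0.104). Bcat2, an enzyme that breaks down branched-chain amino acids, fell by 0.40 (adjusted p = 0.0397), a call lost in 8 of 12 omissions (adjusted p 0.0506 to 0.119). L1cam fell by 0.47 (adjusted p = 0.00755). With wild-type sham replicate 3 or wild-type ischemia replicate 1 or 3 left out, 1 target fell, and 2 did in 6 other omissions.

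Gap43 and L1cam, neuronal genes of the target list that mouse knockouts link to Klf7, were chosen for mention after their values were seen. Gap43, a growth cone protein, averaged 1067 ± 22.5 in SUMO-KD ischemia against 513 ± 66.3 in wild-type ischemia arrays, and 1145 ± 53.9 in SUMO-KD sham against 629.7 ± 74.6 in wild-type sham arrays (SD, n = 3). The log2 difference was 1.02 after ischemia (adjusted p = 0.001) and 0.84 after sham (adjusted p = 0.00196), with no overlap in either surgery. Without SUMO-KD ischemia replicate 2 the difference after ischemia was 1.04 (adjusted p = 0.00428). L1cam, a neuronal adhesion molecule, was higher in SUMO-KD after ischemia by 0.49 (adjusted p = 0.0373), a call lost in 9 of 12 omissions (adjusted p 0.056 to 0.146), and its difference after sham was 0.18 (adjusted p = 0.486). Klf7 itself did not pass in either genotype comparison. Of the 21 measured targets, 2 were called higher and 1 lower in SUMO-KD after ischemia, against 1% and 0.557% of all genes. After sham 1 was called higher and 0 lower, against 1.5% and 0.597% of all genes.

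For each of the 5 members that rose, the 3 genes with the most similar pattern were found by the root mean square difference of log2 values over the 12 arrays, each gene centred on its own mean. Nearest to Klf6 were Adamts1 (0.165), Mtf1 (0.172) and Gem (0.18). Nearest to Klf4 were Dusp1 (0.361), Adamts1 (0.416) and Zfp36 (0.446), so no measured gene followed Klf4 as closely as others followed Klf6. Nearest to Klf10 were Cebpb (0.148), Spry2 (0.156) and Sertad1 (0.16). Spry2, an inhibitor of growth factor signalling, changed by 1.27 in SUMO-KD and 1.79 in wild-type, where Klf10 changed by 1.23 and 1.68. Such a match follows from how these genes were picked. For Klf5 they were Mlxip (0.142), Slc16a1 (0.143) and Amotl2 (0.147), and for Klf7 they were Rasa2 (0.117), Cpeb3 (0.122) and Stambpl1 (0.127).

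Markers of other cell types were summed on each array. As the share for their counts, 6.09% of all genes rose and 4.62% fell in SUMO-KD. In wild-type 9.6% rose and 8.88% fell, and in the mean response 12.8% rose and 14% fell. Microglial markers summed to 3378 to 3810 in SUMO-KD ischemia and 4526 to 4854 in SUMO-KD sham arrays, against 3343 to 3627 in wild-type ischemia and 4628 to 4929 in wild-type sham arrays, and 4 of 7 measured markers fell in each genotype. Blood cell markers summed to 658 to 1629 in SUMO-KD ischemia and 291 to 516 in SUMO-KD sham arrays, against 769 to 1060 in wild-type ischemia and 407 to 893 in wild-type sham arrays, with Hba-a1, Cd3e and Cd79a below an intensity of 32. The blood sums overlapped between surgeries in wild-type and did not overlap in SUMO-KD. Of 8 measured blood markers, 1 rose in SUMO-KD, 0 in wild-type and 3 in the mean response. Astrocyte markers summed to 13129 to 13923 in SUMO-KD ischemia and 13322 to 15122 in SUMO-KD sham arrays, against 12581 to 14330 in wild-type ischemia and 10936 to 12660 in wild-type sham arrays. The astrocyte sums overlapped between surgeries in both genotypes, and 1 of 8 measured astrocyte markers rose in SUMO-KD and 2 in wild-type. Dentate gyrus markers, 4 of 5 measured and none dim, summed to 1650 to 2121 in SUMO-KD ischemia and 2422 to 3644 in SUMO-KD sham arrays, against 1553 to 2170 in wild-type ischemia and 1393 to 2825 in wild-type sham arrays. Of these, Prox1, a granule cell transcription factor, rose in wild-type by 1.03 (adjusted p = 0.00473), and none of the 4 passed in SUMO-KD. In the mean response 1 of the 4 was called higher and 2 lower. The median log2 difference of the 4 was −0.68 in SUMO-KD, 0.05 in wild-type and −0.34 in the mean response. The part of these values in the KLF responses was not tested.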

How the data were processed

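RNA of 12 pools was amplified with a MessageAmp Premier kit, labelled with biotin and hybridised to 1-colour Affymetrix arrays, per the labels' protocols. The values deposited were linear intensities, 1 for each probe set on each array. Partek 6.6 and RMA are named in the submitters' processing notes, but these intensities were not on the log2 scale of RMA output; how they were made is not stated in the sources used here. Tests used log2(intensity + 32), so folds understate changes of dim genes. Of 22690 probe sets, 20393 had 1 gene symbol, 691 several and 1606 none. The brightest single-symbol probe set by mean stood for each of 12394 genes.

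One model of 4 group means (limma 3.58.1, R 4.3.3, lmFit and eBayes) served every comparison. Adjusted p-values are two-sided Benjamini-Hochberg values over all genes, called under 0.05; the fit of every probe set adjusted over all of them. Intervals are 95%. The number of arrays limits the precision, and p-values measure the spread between pools.

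Named were the members with every probe set, up to 6 genes per list called for the mean response, and 3 most similar genes per risen member; exceptions are stated. Members and lists were chosen with earlier results of these data known. Offsets, normalization, filters, probe set choice, model settings and omission of each array were varied. The fit was tested on simulated data. The labels give neither surgery day nor scan batch.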

Additional observations from a re-analysis of the deposited data

How the results depend on the processing

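Across 25 alternatives, 1310 of 1332 values of the 9 members kept their direction where called and their side of the threshold, 16 lost a call, 6 gained one and 0 called values reversed; of 931 values called in neither fit, 30 changed sign. With each array left out in turn, 4 to 5 members were called for ischemia in wild-type, 5 to 5 in SUMO-KD and 5 to 5 for the mean response. Besides omissions, the wild-type call of Klf7 was lost with no offset (adjusted p = 0.0575), quantile normalization (0.0533), median centring (0.0637) and the compared groups alone (0.0573).

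For SUMO-KD against wild-type in sham, 0 members were called, with 1 (Klf3) under the replicate block (adjusted p = 0.0429) and 1 under array weights (0.0425), and 0 to 1 over the omissions. After ischemia 1 was called, with 2 under the dim filter and 2 under trend and robust eBayes (Klf4 added, adjusted p = 0.049 and 0.0338), 0 in the compared groups alone, and 0 to 2 over the omissions. The difference of responses stayed at 0. Replicate numbers were not used as pairs in the main fit. Same-numbered deviations correlated at −0.166 to 0.248 over 12 pairs, 3 of them above 0.1. In 5 of the 12 pairs the same number gave the highest correlation.

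Counts over all genes moved more. For ischemia, 1328 calls in SUMO-KD became 763 without SUMO-KD ischemia replicate 2. In wild-type, 2291 calls (18.5% of 12394 genes) became 1548 without wild-type sham replicate 1 and 2624 with array weights. The fit of every probe set called 3474 in wild-type, a smaller share at 15.4% of 22626 probe sets. The mean response gave 3312 calls, 26.7% of genes. With every probe set it gave 5114, 22.6% of probe sets. Between genotypes, 260 in sham ran from 112 without wild-type sham replicate 1 to 461 with array weights, and 193 after ischemia from 48 in the compared groups alone to 331 with array weights. The difference of responses gave 2, and from 0 to 5 over the alternatives. Where an omission left 2 arrays, the pooled spread was used. Dim probe sets, such as the second of Klf5 and the third of Klf13, limit what can be read from signal over background. The causes of these changes were not tested.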
